A study of Homo sapiens with 6 samples.

Results

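The genes described here are the transcription factors of the MiT/TFE family, the lysosomal enzymes and membrane proteins, the lysosomal proton pump and the autophagy machinery. They were taken by gene symbol from a list of 35, of which 34 are among the 20683 genes counted; MAP1LC3B, the gene of an LC3 protein, was not analysed here. The members fall into 3 MiT/TFE factors, 8 hydrolases, 7 membrane, lipid transport and activator proteins, 5 proton pump genes and 11 autophagy genes. All 34 passed the filter on low counts, with at least 39 counts in every library.

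RNA came from the human fibrosarcoma cell line HT-1080, and each gene was read through a short PCR product of an amplicon panel. The treated dishes received SLV-8472-01, an inhibitor of the kinase IRAK4, for 24 h, labelled as 5 mM, with no second source for that unit. Control dishes were given 0.1% DMSO over the same 24 h. The series describes 3 biological replicates a group, without saying whether each is a separate culture, so the p-values measure the spread between these libraries. IRAK4 relays signals from Toll-like and interleukin-1 receptors, and the question of the comparison is which transcripts differ after exposure to its inhibitor.

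Lysosomes break down material that reaches them by endocytosis or autophagy, using acid hydrolases that work in a lumen acidified by the proton pump, the V-ATPase. TFEB, TFE3 and MITF are helix-loop-helix factors that switch on many lysosome and autophagy genes together. When nutrients are plentiful the kinase complex mTORC1, recruited to the lysosome by Rag GTPases, phosphorylates these factors and keeps them in the cytoplasm. Their activity is thus set largely by where the protein is, which transcript counts do not measure.

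The DNA motif through which MiT/TFE factors act on lysosomal genes, known as the CLEAR element, is built around the letters CACGTG, which read the same on both strands. The stretches below show where that core lies in the members' promoters; the core is in capitals, each stretch runs 5′ to 3′ on the gene's own strand with 12 bases on either side of the outermost cores, and all come from RefSeq promoter windows (250 bases before to 50 after a start, build GRCh38.p14).
CTSA, chr20:45891281-45891327, plus strand: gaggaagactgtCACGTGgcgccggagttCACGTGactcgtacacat
CTSD, chr11:1763957-1763986, minus strand: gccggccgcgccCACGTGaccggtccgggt
NEU1, chr6:31862930-31862959, minus strand: atgctgcgtgatCACGTGggaggagatgag
LAMP1, chr13:113297035-113297255, plus strand: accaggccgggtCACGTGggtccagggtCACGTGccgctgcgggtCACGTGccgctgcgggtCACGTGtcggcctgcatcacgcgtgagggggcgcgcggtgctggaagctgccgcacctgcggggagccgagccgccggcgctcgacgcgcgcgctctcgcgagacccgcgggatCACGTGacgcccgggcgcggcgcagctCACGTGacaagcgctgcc
MCOLN1, chr19:7522571-7522627, plus strand: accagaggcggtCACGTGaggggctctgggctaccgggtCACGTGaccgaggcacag
ATP6V0D1, chr16:67481199-67481228, minus strand: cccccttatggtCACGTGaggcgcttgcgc

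Of the 26 tested members with a promoter window in the RefSeq table, these 6 held CACGTG, or 23.1%, against 13% of 8801 tested genes and 7.26% of all 35116 windows. The same 6 held the longer form TCACGTG on either strand, which contains the core, against 7.49% of tested genes and 3.71% of all windows. A gene was counted if any of its windows held the letters, so shares of genes and shares of windows are unlike measures. LAMP1 carried 6 copies, CTSA and MCOLN1 2 each, and CTSD, NEU1 and ATP6V0D1 1 each. None of the windows of the 3 MiT/TFE genes or of 10 autophagy genes held the core, which says only that these letters are not in those windows. A match is a description of sequence, and binding was not measured.

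Library totals were 9469603 to 11909708 counts in the inhibitor group and 9162281 to 13184553 in the DMSO group, and the members took 0.497 to 0.514% of the counts in inhibitor libraries and 0.5 to 0.529% in DMSO libraries. Replicates differed by more than counting noise (chi-square per degree of freedom 5.17 to 36.7). DMSO 3 was farther from DMSO 1 and 2 (36.7 and 24.6 by that measure) than these were from each other (9.88). Across 9189 genes, the log2 level relative to the rest of its group had a Spearman correlation with transcript GC content of -0.464 in DMSO 3, 0.506 in DMSO 1 and 0.12 in DMSO 2, a description across genes that share libraries; DMSO 1 and DMSO 3 thus lay at opposite ends of that trend. The summed mesenchymal list, most of it VIM, spanned 6730 to 6920 CPM in inhibitor and 6090 to 7160 CPM in DMSO libraries (counts per 1000000, CPM, scaled by TMM). None of its 9 tested markers was called, and 7 had a log2 fold change below 0 (77.8%, against 50.6% of all tested genes, median -0.10). For 3 (FN1, COL6A1 and MMP2) all inhibitor libraries lay below all DMSO libraries, or 33.3% against 11.8% of all tested genes. In all, 4 of 10 mesenchymal markers (VIM, FN1, COL6A1 and MMP2) and 2 of 8 epithelial ones (KRT8 and KRT18) averaged over 10 CPM. The summed epithelial list spanned 281 to 306 CPM in inhibitor and 264 to 356 CPM in DMSO libraries. The epithelial marker CDH1 and the leukocyte markers PTPRC, CD3E and MS4A1 had no count in any library, and the summed leukocyte list, nearly all of it CD68, spanned 250 to 291 CPM in inhibitor and 321 to 371 CPM in DMSO libraries. CD68, a lysosomal membrane glycoprotein that fibroblast-like cells also make, did not pass (log2 fold change -0.36, SE 0.117; adjusted p = 0.106 by edgeR), and the part of other cells in any result was not tested.

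TFEB transcripts fell in the inhibitor libraries, and TFE3 and MITF showed no difference beyond the spread between replicates. TFEB, the factor best known for lysosome biogenesis, stood at 8.74, 8.73 and 9.99 CPM in inhibitor 1 to 3, from 107, 98 and 96 counts, against 12.7, 14.2 and 16.2 CPM in DMSO 1 to 3, from 162, 186 and 144 counts. All 3 inhibitor libraries lay below all 3 DMSO libraries. The level averaged 9.15 ± 0.72 CPM in inhibitor and 14.3 ± 1.78 CPM in DMSO libraries (SD, n = 3 each), a fold of 0.64. The log2 fold change was -0.64 (SE 0.163, 95% interval -0.99 to -0.30; edgeR's quasi-likelihood test, adjusted p = 0.0412 over 11216 genes). TFEB ranked 388th by p among the genes tested, so its call stands close to the threshold. In bulk RNA such as this, fewer cells making a transcript and less of it per cell cannot be told apart. Leaving out inhibitor 1, 2 or 3 or DMSO 2 ended the call (edgeR adjusted p = 0.202, 0.213, 0.109 and 0.131), while the log2 fold change stayed between -0.74 and -0.57 over the 6 left-out libraries; without DMSO 3 it was -0.57 (adjusted p = 0.00995).

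TFE3, a close relative that acts on overlapping target genes, was at 47.0, 47.2 and 44.7 CPM in inhibitor 1 to 3 and at 55.0, 46.3 and 47.6 CPM in DMSO 1 to 3. The groups overlapped, and the log2 fold change was -0.10 (SE 0.126, 95% interval -0.37 to 0.17, edgeR adjusted p = 0.72). MITF, the family member known as the regulator of pigment cells, gave 57, 39 and 40 counts in the inhibitor and 58, 57 and 42 counts in the DMSO libraries. These are 4.66, 3.48 and 4.16 CPM in inhibitor against 4.54, 4.34 and 4.73 CPM in DMSO libraries, which overlap. The MITF log2 fold change was -0.14 (SE 0.206, 95% interval -0.58 to 0.30), a wider interval than that of TFE3. Whether TFEB and the other two factors differ in their response was not tested. TFEC, the remaining family member, had 4 counts in inhibitor 1 and none in the other 5 libraries, and was not tested.

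**Figure D1:**
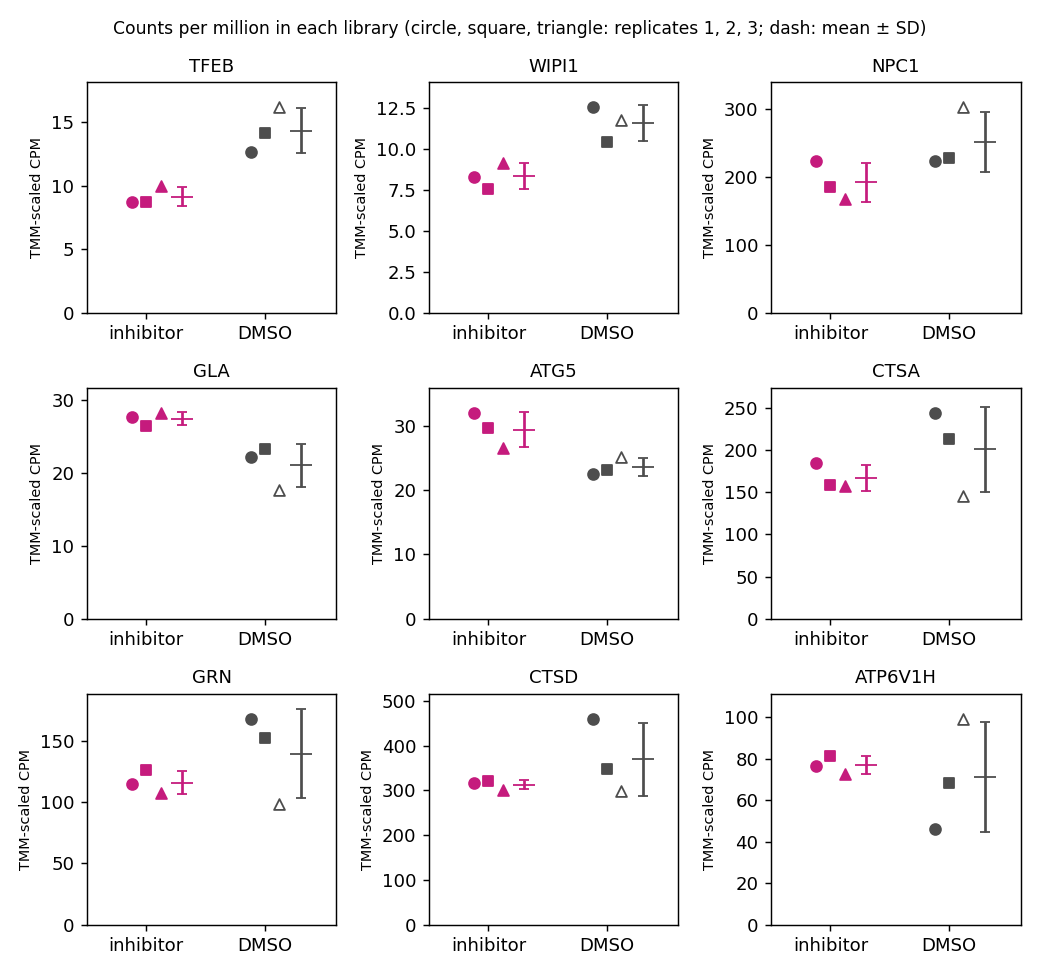
TMM-scaled CPM (vertical axes, from 0) of 9 members in each of the 3 inhibitor and 3 DMSO libraries, with circles, squares and triangles for replicates 1, 2 and 3, an open triangle for DMSO 3, and a dash with bars for mean ± SD. TFEB, WIPI1 and NPC1 were lower in all inhibitor libraries, GLA and ATG5 were higher in all of them, and in CTSA, GRN, CTSD and ATP6V1H the DMSO 3 point lies away from DMSO 1 and 2.

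None of the 8 lysosomal hydrolase genes passed the test, and their median log2 fold change was -0.03, against -0.0044 over all tested genes. The median's sign and size rested on the DMSO libraries: it was 0.10 without DMSO 1, with 5 of 8 above 0, and -0.17 without DMSO 3. At an unadjusted p under 0.05, 1 of the 8 stood out, GLA, where 19.5% of all tested genes did. GLA encodes alpha-galactosidase A, the enzyme deficient in Fabry disease. It was at 27.7, 26.4 and 28.2 CPM in inhibitor 1 to 3 and at 22.1, 23.2 and 17.7 CPM in DMSO 1 to 3, with every inhibitor value above every DMSO value. Its log2 fold change was 0.38 (SE 0.142, edgeR adjusted p = 0.157), and 0.26 without DMSO 3 (adjusted p = 0.143).

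CTSA and CTSD, whose promoter stretches are shown above, had the next largest differences of the hydrolases, both towards lower values in inhibitor libraries. CTSA encodes cathepsin A, a carboxypeptidase that also protects neuraminidase and beta-galactosidase. It was at 184.8, 158.1 and 157.8 CPM in inhibitor 1 to 3, against 243.9, 213.4 and 145.3 CPM in DMSO 1 to 3. DMSO 1 and 2 were above all inhibitor libraries and DMSO 3 was below all of them, so that the log2 fold change was -0.27 (SE 0.165, edgeR adjusted p = 0.397) with DMSO 3 and -0.47 (SE 0.103, adjusted p = 0.00134) without it. Without DMSO 1 the CTSA value was -0.11 (adjusted p = 0.753).

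CTSD encodes cathepsin D, the main aspartic protease of lysosomes, and behaved alike: 316.1, 320.1 and 301.6 CPM in inhibitor 1 to 3 and 459.7, 348.3 and 299.2 CPM in DMSO 1 to 3. Its log2 fold change was -0.24 (SE 0.145, edgeR adjusted p = 0.385), and -0.39 (SE 0.105, adjusted p = 0.00767) without DMSO 3, against -0.06 (adjusted p = 0.85) without DMSO 1. The transcripts of CTSA and CTSD have 60.7% and 64% GC, near the top of the members' range of 37.5 to 64.2%. These are values of whole transcripts, not of the short PCR products that were read. DMSO 3 was 0.65 and 0.42 lower on the log2 scale than the mean of DMSO 1 and 2 for these genes. With each library's GC trend removed and DMSO 3 left out, CTSA still passed (log2 fold change -0.32, edgeR adjusted p = 0.0203) and CTSD did not (-0.20, adjusted p = 0.158). With the GC trend removed and DMSO 3 kept, neither passed (CTSA -0.20, edgeR adjusted p = 0.412, and CTSD -0.16, adjusted p = 0.455).

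The other 5 hydrolases had smaller log2 fold changes. Their 95% intervals leave room for differences either way, such as -0.39 to 0.11 for CTSB and -0.29 to 0.39 for HEXA. CTSB, the cysteine protease cathepsin B, had a log2 fold change of -0.14, HEXA, the alpha subunit of beta-hexosaminidase, 0.05, and GUSB, beta-glucuronidase, 0.04. TPP1, tripeptidyl peptidase 1, was at -0.04 and NEU1, the lysosomal neuraminidase, at -0.02. NEU1 shows how the DMSO libraries spread: it was at 53.6, 53.8 and 55.2 CPM in inhibitor 1 to 3, and at 69.3, 53.1 and 42.2 CPM in DMSO 1 to 3. GUSB has pseudogene copies in the human genome, so its counts are uncertain as to their source.

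**Figure D2:**
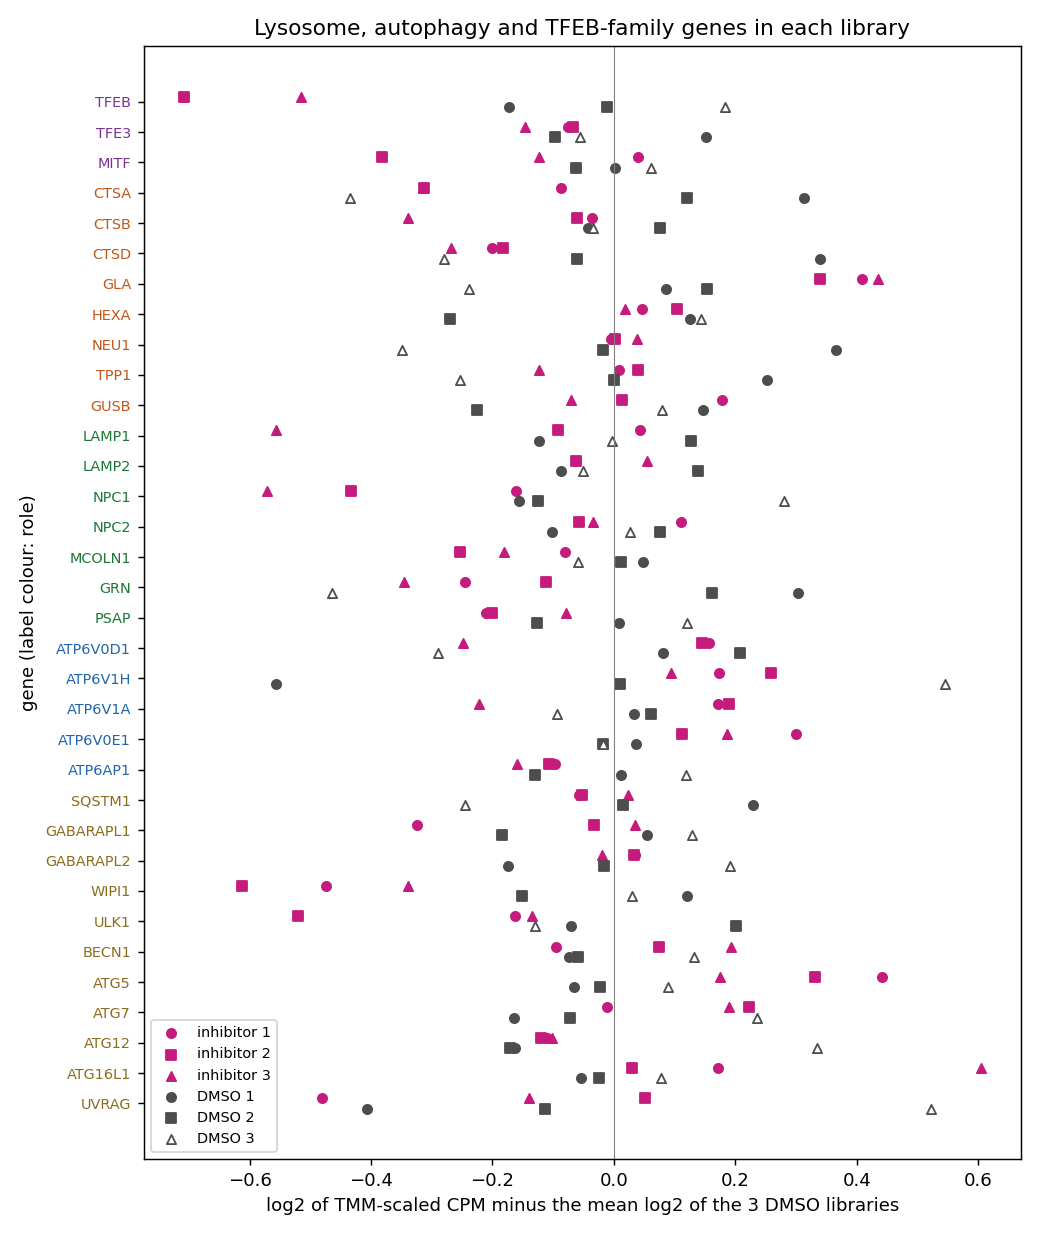
Each row is a member and each point a library: the horizontal axis is the log2 of TMM-scaled CPM minus the mean log2 of the 3 DMSO libraries, for inhibitor 1 to 3 (filled, pink) and DMSO 1 to 3 (grey, DMSO 3 open), with gene labels coloured by role. For TFEB inhibitor 1 and 2 coincide, and for 5 members all inhibitor points lie left of the DMSO points, for 3 members right of them.

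Among the 7 membrane, lipid transport and activator genes none passed, and 6 of the 7 log2 fold changes were below 0, with a median of -0.17. NPC1, the membrane protein that exports cholesterol from the lysosome together with the luminal NPC2, had the largest difference. It was at 223.4, 185.0 and 168.0 CPM in inhibitor 1 to 3 and at 224.2, 228.9 and 303.4 CPM in DMSO 1 to 3. The groups did not overlap, by a margin of less than 1 CPM between inhibitor 1 and DMSO 1, and the log2 fold change was -0.39 (SE 0.148, edgeR adjusted p = 0.157), or -0.25 (adjusted p = 0.0885) without DMSO 3. NPC2 itself was at 95.8 ± 6.18 CPM in inhibitor and 95.3 ± 5.98 CPM in DMSO libraries (SD, n = 3 each), a log2 fold change of 0.0072 with a 95% interval of -0.25 to 0.27.

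GRN encodes progranulin, which is cut into granulins inside the lysosome. It stood at 115.0, 126.1 and 107.3 CPM in inhibitor 1 to 3, against 168.2, 152.4 and 98.8 CPM in DMSO 1 to 3. As for CTSA, DMSO 1 and 2 were above and DMSO 3 below all inhibitor libraries, at a GC content of 61.8%. The log2 fold change of GRN was -0.27 (SE 0.17, edgeR adjusted p = 0.408) with all libraries, -0.48 (SE 0.103, adjusted p = 0.000976) without DMSO 3, and -0.32 (adjusted p = 0.0213) without DMSO 3 and with the GC trend removed. Without DMSO 1 it was -0.12 (edgeR adjusted p = 0.737). With the GC trend removed and DMSO 3 kept, GRN was at -0.19 and did not pass (edgeR adjusted p = 0.441).

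LAMP1, whose promoter has the most CACGTG copies of the members, encodes an abundant glycoprotein of the lysosomal membrane. It was at 34.1, 31.0 and 22.5 CPM in inhibitor 1 to 3 and at 30.4, 36.1 and 33.0 CPM in DMSO 1 to 3, overlapping groups with inhibitor 3 the lowest (log2 fold change -0.18, SE 0.159, edgeR adjusted p = 0.592; -0.03 without inhibitor 3). LAMP2, which takes part in chaperone-mediated autophagy and in fusion with autophagosomes, had a log2 fold change of -0.03. MCOLN1, the calcium channel TRPML1, was lower in all inhibitor libraries, at 24.4, 21.7 and 22.8 CPM against 26.7, 26.03 and 24.8 CPM in DMSO libraries, but by less than the test resolves (-0.17, SE 0.131, adjusted p = 0.517). PSAP, the precursor of the saposins that activate sphingolipid hydrolases, averaged 1124 ± 58.3 CPM in inhibitor and 1260 ± 108 CPM in DMSO libraries (SD, n = 3 each), a log2 fold change of -0.17 (SE 0.11, adjusted p = 0.436).

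The proton pump genes showed no called difference, and 4 of 5 log2 fold changes were above 0, with a median of 0.06. That direction depended on single libraries: without inhibitor 1 or inhibitor 2 only 2 of 5 were above 0, with medians of -0.0028 and -0.012, while the median was 0.15 without inhibitor 3 and 0.0017 without DMSO 3. ATP6V0E1, a small subunit of the membrane sector, was at 541.0, 475.4 and 500.2 CPM in inhibitor 1 to 3 and at 451.0, 434.1 and 434.1 CPM in DMSO 1 to 3. All inhibitor values were higher, with 0.20 as the log2 fold change (SE 0.109; adjusted p = 0.326 by edgeR). ATP6AP1, an accessory and assembly protein of the pump, was at 145.5, 144.5 and 139.3 CPM in inhibitor against 156.8, 142.2 and 169.0 CPM in DMSO libraries, which overlap (-0.12, SE 0.118, adjusted p = 0.617).

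ATP6V1H, the regulatory subunit of the catalytic sector, varied more among DMSO libraries than any other pump gene: 76.6, 81.3 and 72.5 CPM in inhibitor 1 to 3, and 46.2, 68.4 and 99.2 CPM in DMSO 1 to 3. The log2 fold change was 0.11 (SE 0.205, edgeR adjusted p = 0.814). Without DMSO 3 it was 0.41 (SE 0.124, adjusted p = 0.0168), without DMSO 1 it was -0.13 (adjusted p = 0.71), so its size and direction moved with the DMSO library left out. ATP6V1A, the catalytic A subunit, was at 0.06 and ATP6V0D1, of the membrane sector, at 0.01.

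None of the 11 autophagy genes passed, and their median log2 fold change was -0.04, or 0.06 without DMSO 3. The largest difference was in WIPI1, a phosphoinositide-binding protein of the forming autophagosome, at 8.33, 7.58 and 9.15 CPM in inhibitor 1 to 3 (102, 85 and 88 counts) and at 12.6, 10.4 and 11.8 CPM in DMSO 1 to 3 (161, 137 and 105 counts). The groups did not overlap, and the log2 fold change of WIPI1 was -0.48 (SE 0.165, 95% interval -0.83 to -0.12, edgeR adjusted p = 0.124). Without DMSO 3 it was again -0.48 and passed (edgeR adjusted p = 0.04). With any other single library left out WIPI1 did not pass (edgeR adjusted p = 0.194 to 0.404).

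ATG5 and ATG16L1, partners in the complex that attaches LC3-family proteins to membranes, pointed the other way. ATG5 was at 32.02, 29.7 and 26.6 CPM in inhibitor 1 to 3 and at 22.5, 23.2 and 25.1 CPM in DMSO 1 to 3, with no overlap. Its log2 fold change was 0.32 (SE 0.135, edgeR adjusted p = 0.203), and 0.35 without DMSO 3 (edgeR adjusted p = 0.0459). With any other single library left out ATG5 did not pass (edgeR adjusted p = 0.263 to 0.455). ATG16L1 was at 24.5, 22.2 and 33.1 CPM in inhibitor 1 to 3 and at 21.0, 21.4 and 23.0 CPM in DMSO 1 to 3, overlapping because of inhibitor 2 (0.29, SE 0.16, edgeR adjusted p = 0.344). Its size rested on inhibitor 3, the highest library, without which it was 0.10 (adjusted p = 0.821). ATG12, which is conjugated to ATG5, was at -0.13 and ATG7, the E1-like enzyme of both conjugation systems, at 0.13.

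SQSTM1, the cargo receptor p62 and a known TFEB target, averaged 642 ± 20.1 CPM in inhibitor and 660 ± 107 CPM in DMSO libraries (SD, n = 3 each). Its log2 fold change was -0.04 with a 95% interval of -0.31 to 0.23. Of the initiation genes, ULK1, the starting kinase, was at -0.27 (SE 0.163, edgeR adjusted p = 0.375), with 15.2, 11.9 and 15.5 CPM in inhibitor and 16.2, 19.6 and 15.5 CPM in DMSO libraries, which lie next to each other without overlap. BECN1, of the lipid kinase complex, was at 0.06 and UVRAG, its partner, at -0.21. The LC3 relatives GABARAPL1 and GABARAPL2 were at -0.10 and 0.0092; GABARAPL1 has a near-identical pseudogene, so its counts are uncertain as to their source.

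**Figure D3:**
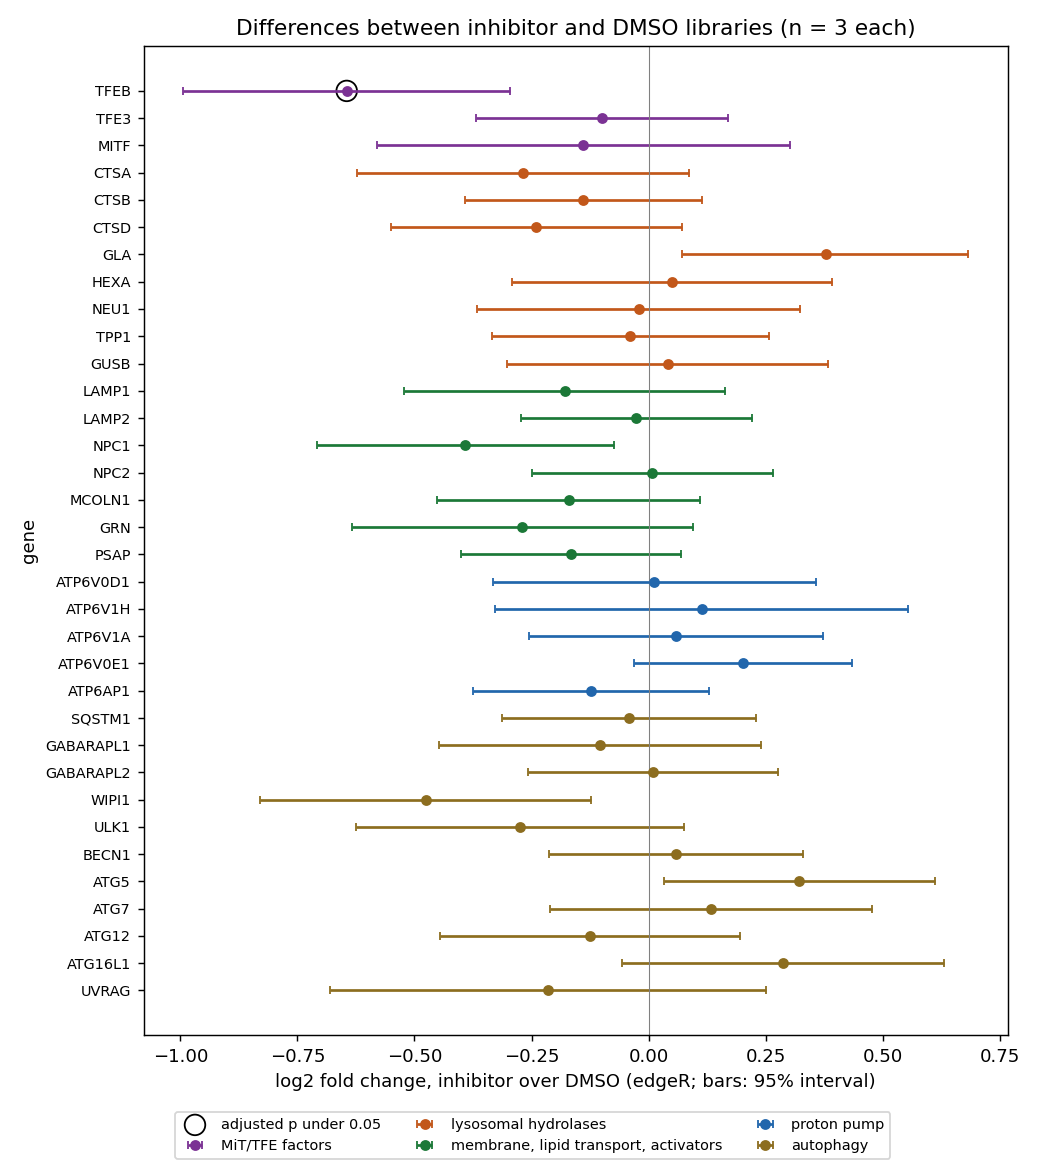
Log2 fold change, inhibitor over DMSO, of the 34 members from edgeR's fit of all genes (points coloured by role, bars the 95% interval, n = 3 libraries each), with a ring around members at an adjusted p under 0.05. TFEB, at -0.64, carries the single ring, and the intervals of TFEB, NPC1, WIPI1, GLA and ATG5 do not reach 0.

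Over all members, 1 of 34 was called lower and 0 higher by edgeR, or 2.94%, against 3.87% of all tested genes called in either direction (1.92% lower, 1.95% higher). At an unadjusted p under 0.05, 3 were lower and 2 higher, or 5 of 34, where the share over all tested genes was 19.5% (9.23% lower, 10.3% higher). DESeq2, which called 5.3% of all genes, and limma-voom, which called 3.96%, also called 1 member lower and 0 higher. The groups did not overlap for 8 members, 5 with the inhibitor libraries lower and 3 with them higher, or 23.5% against 25.5% of all tested genes (11.8% lower, 13.7% higher). The members' median log2 fold change was -0.07, against -0.0044 over all tested genes, and 21 of 34 were below 0 (61.8%, against 50.6% of all tested genes). The median absolute log2 fold change was 0.136 among members and 0.182 among all tested genes. For 24 of the 34 members, or 70.6%, the 95% interval lay within a 1.5-fold change in either direction, as it did for 55% of all tested genes. A mean count of at least 50 was reached by 33 of the 34 members, and by 9246 genes where 11216 were tested. Members and background were thus not matched for count depth in these comparisons.

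The 6 members that hold CACGTG in their promoter windows ranged from -0.27 (CTSA) to 0.01 (ATP6V0D1), and none was called. Scaling by library totals alone moved the members' median to -0.01, with 17 of 34 below 0, while it moved the median of all genes from -0.0044 to 0.06; TFEB then missed the threshold (log2 fold change -0.59, edgeR adjusted p = 0.0566).

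Leaving out DMSO 3 changed which members passed. Then 5 members were lower, namely TFEB, CTSA, CTSD, GRN and WIPI1, and 2 were higher, ATG5 and ATP6V1H, or 7 of 34 (20.6%). Over all genes 21.9% passed without DMSO 3, so the share among members was again near the background. With the GC trend also removed, 5 passed, TFEB, CTSA, GRN and WIPI1 lower and ATP6V1H higher (14.7%, against 19.9% of all genes). With the GC trend removed and DMSO 3 kept, TFEB alone passed (2.94%, against 6.23% of all genes). Among the 34 members the difference of DMSO 3 from DMSO 1 and 2 had a Spearman correlation of -0.5 with GC content, where all points share the same 3 libraries. The SD was larger in the DMSO than in the inhibitor group for 23 of 34 members (67.6%, against 70% of all tested genes).

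**Figure D4:**
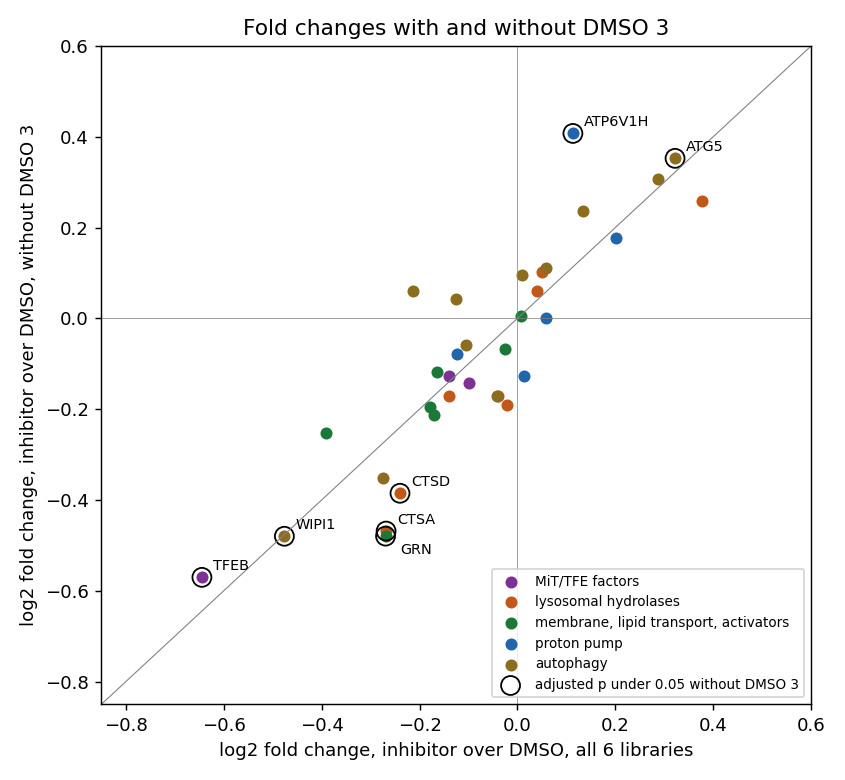
Log2 fold change, inhibitor over DMSO, with all 6 libraries (horizontal axis) and without DMSO 3 (vertical axis) for the 34 members coloured by role, with equality as the diagonal line and rings around members at an adjusted p under 0.05 without DMSO 3. CTSA, CTSD and GRN lie below the diagonal and ATP6V1H above it, while TFEB, WIPI1 and ATG5 lie near it.

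**Figure D5:**
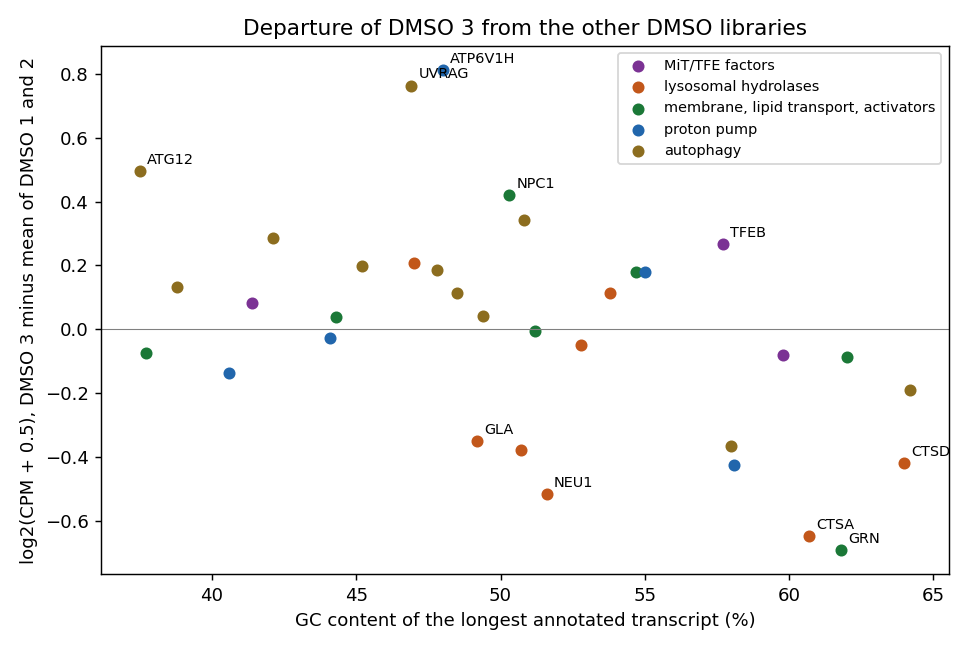
For each of the 34 members, GC content of the longest annotated transcript (horizontal axis, percent) and log2(CPM + 0.5) of DMSO 3 minus the mean of DMSO 1 and 2 (vertical axis), coloured by role. CTSA, GRN and CTSD lie low at high GC content, and ATG12, UVRAG and ATP6V1H lie high, while TFEB is 0.27 above 0 at 57.7% GC.

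In 5 further lists of the same pathways, 2 genes passed, both in the list of other lysosomal membrane and trafficking genes (2 of 27 tested, or 7.41%, against 3.87% of all tested genes). The other lists, of 30, 13, 33 and 27 tested genes, had 0 each. SLC17A5, the gene of sialin, which exports sialic acid from the lysosome, rose in the inhibitor libraries, with 24.6, 21.4 and 20.5 CPM in inhibitor 1 to 3 and 13.8, 13.2 and 14.8 CPM in DMSO 1 to 3. The groups did not overlap, and the log2 fold change was 0.68 (SE 0.144, edgeR adjusted p = 0.0187; 0.70 without DMSO 3). IGF2R, the cation-independent mannose 6-phosphate receptor that carries new hydrolases to lysosomes, fell, with 120.4, 97.0 and 105.3 CPM in inhibitor 1 to 3 and 171.0, 151.1 and 140.4 CPM in DMSO 1 to 3 (log2 fold change -0.52, SE 0.13, adjusted p = 0.0402; -0.60 without DMSO 3). Neither was called without inhibitor 1, 2 or 3 or without DMSO 2, and IGF2R was not called without DMSO 1 (edgeR adjusted p = 0.0716), with library totals only (0.0603) or with a replicate block (0.0552). Of 22 tested genes of the list of other membrane and trafficking genes with a promoter window, 9 held CACGTG (40.9%, against 13% of tested genes). SLC17A5 was not looked up singly, and whether the core bears on either difference was not tested. The IGF2R promoter window held 3 copies of the core CACGTG, in this stretch.
IGF2R, chr6:159968938-159969071, plus strand: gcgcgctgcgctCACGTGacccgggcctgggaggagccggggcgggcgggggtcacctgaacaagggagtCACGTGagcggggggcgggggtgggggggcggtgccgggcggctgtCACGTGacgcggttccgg

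No gene passed among 30 other hydrolases (median log2 fold change -0.11, 23 of 30 below 0), 13 other pump subunits (median 0.04), 33 other autophagy genes (median -0.07) and 27 genes of mTORC1, the Rag GTPases and folliculin, the regulators of MiT/TFE location (median -0.0048). At an unadjusted edgeR p under 0.05 these lists had 4, 0, 7 and 6 genes, where 19.5% of all genes fell under it. The groups did not overlap for 23.3, 0, 18.2 and 44.4% of the genes in these lists, against 25.5% of all tested genes. Among the mTORC1, Rag and folliculin genes, 7 were lower and 5 higher in all inhibitor libraries. DESeq2 called 1 of the other autophagy genes lower and limma-voom none in these 4 lists, while without DMSO 3 edgeR called 6, 3, 6 and 5 (20, 23.1, 18.2 and 18.5%, against 21.9% of all genes). NBR1, an autophagy cargo receptor chosen here after its values were seen, came near the threshold: it was at 126.9, 123.3 and 129.1 CPM in inhibitor 1 to 3 and at 166.7, 169.5 and 167.6 CPM in DMSO 1 to 3 (log2 fold change -0.41, SE 0.111, edgeR adjusted p = 0.0571).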

How the data were processed

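Per the labels' protocols, the libraries were Ion AmpliSeq transcriptome amplicons sequenced on a PI chip. What the authors deposited is 1 raw count per gene symbol and library, not normalized; DESeq2 1.20.0, HTSeq and the build hg19 appear in the submitters' processing notes without their roles, and no aligner is stated there. Amplicon counts depend on how well each product amplifies, so the tests compared levels between groups and not between genes. The summed marker lists and the marker cut at 10 CPM do set different genes side by side and carry that limit. No molecular identifiers are named, so counts need not be independent molecules.

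The counts were analysed with edgeR 4.0.16 (R 4.3.3): filterByExpr (minimum count 10, minimum total 15) kept 11216 genes, TMM set the library scaling, and the quasi-likelihood test used the group alone, with Benjamini-Hochberg adjustment over all tested genes and a threshold of 0.05. The SE is the absolute log2 fold change divided by the square root of F, and 95% intervals use the test's degrees of freedom. DESeq2 1.42.0 and limma 3.58.1 (voom, also with quality weights), other scalings and filters, a replicate block and left-out libraries were alternatives; removal of each library's GC trend (local regression, span 0.5, GENCODE transcripts, 98.9% of tested genes matched) was added after the data were seen. All GC values are those of the longest annotated transcript of a gene, and the GC content of the amplicon itself was not used. Members and lists were chosen with earlier results of these data known. Members named with values in every library were the MiT/TFE factors, those past the threshold, the 3 largest differences of each other role and a few more. From the further pathway lists, genes past the threshold were named, and also NBR1, which was not past it. On simulated counts for the inhibitor against DMSO comparison (11151 genes), false calls by edgeR were 6.06%, and it found 47% of 1.5-fold, 86.6% of 2-fold and 100% of 4-fold differences. The simulated counts were drawn for each gene independently, with no GC trend and no library set apart as DMSO 3 is. These rates therefore need not hold for the real libraries.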

Additional observations from a re-analysis of the deposited data

How the results depend on the processing

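The direction of TFEB held under all 16 alternatives, with edgeR, DESeq2 or limma adjusted p between 0.00158 and 0.213. The number of changed members, 1 in the fit as reported, was 0 with library totals only and 0 with a replicate block (TFEB adjusted p = 0.0577), 6 with library quality weights, 5 with the GC trend removed and without DMSO 3, and 0 to 7 over the left-out libraries. Their median log2 fold change was -0.0105 with library totals only, -0.0472 with quality weights and -0.0985 to -0.0555 over the left-out libraries. The number of changed genes, 434 as reported, was 831 with no filter on low counts, 2606 with quality weights, 691 and 2241 once GC trends were removed, with and without DMSO 3, and 99 to 2496 over the left-out libraries. In the wider lists, 2 as reported, it was 1 with library totals only, 6 with no filter, 29 with quality weights, 1 with a replicate block, 4 and 22 for the 2 fits without the GC trend, and 0 to 24 over the left-out libraries. Deviations from group means of same-numbered libraries correlated at -0.079, -0.045 and -0.119 over 9246 genes. Those of differently numbered libraries correlated at -0.093 to 0.156. Deviations within a group of 3 are not independent, so these values cannot settle whether a replicate number in the titles marks a shared culture or batch. What the replicate block pairs beyond that number is therefore not known.

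Some members changed sign, none of them called at the value of the other sign. They were not all near equality: UVRAG was at -0.21 and ATP6V1H at 0.11 in the fit as reported. NPC2 was -0.0028 with size factors of DESeq2, -0.005 with no filter, -0.0032 at a mean count of at least 50, -0.0027 with DESeq2, -0.0292 with quality weights, and -0.0214 and -0.0501 once GC trends were removed, with and without DMSO 3. GABARAPL2 was -0.0005, -0.0029, -0.0012 and -0.0003 under the first 4 of these and -0.0262 with the GC trend removed. With library totals only, NEU1 was 0.0388, TPP1 0.0213, LAMP2 0.0324 and SQSTM1 0.0181. NEU1 was 0.0044 with limma-voom and 0.0059 with a replicate block. ATP6V0D1 was -0.0002 with no filter and -0.1123 with quality weights, and ATG12 0.0219 under those weights. With the GC trend removed, ATP6V1A was -0.0001 and SQSTM1 0.0025, and without DMSO 3 as well, ATP6V0D1 was -0.0138, ATP6V1A -0.099 and UVRAG 0.0376. Over the left-out libraries, log2 fold changes spanned -0.2152 to 0.0417 for ATG12, -0.126 to 0.1317 for ATP6V0D1, -0.012 to 0.1772 for ATP6V1A, -0.1285 to 0.4073 for ATP6V1H, -0.0116 to 0.1312 for BECN1, -0.0816 to 0.0948 for GABARAPL2, -0.0687 to 0.1139 for GUSB, -0.0776 to 0.1112 for HEXA, -0.0781 to 0.0458 for LAMP2, -0.1904 to 0.1728 for NEU1, -0.0502 to 0.0452 for NPC2, -0.1701 to 0.0719 for SQSTM1, -0.1701 to 0.0884 for TPP1 and -0.4076 to 0.0604 for UVRAG. The causes of these shifts were not tested.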
